A study of Mus musculus with 16 samples.

Results

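The GABA and glycine clearance genes described here are 7 genes chosen by symbol, Slc6a11, Slc6a13, Slc6a9, Abat, Aldh5a1, Maob and Gldc, out of 24060 genes measured by RNA sequencing. All 7 were present in every library and all passed the filter on low values, a mean above 1 CPM (reads per 1000000 on genes), in each comparison. The libraries came from somatosensory cortex of Aldh1l1CreERT2-RiboTag mice on a C57BL/6J background, 3 months old, in which the Aldh1l1 promoter drives a tamoxifen-dependent Cre and recombined cells put a hemagglutinin (HA) tag on their ribosomes. Every mouse, controls included, received tamoxifen at 2 months, and the labels and the published methods give different waits before tissue was taken. Stressed mice swam for 20 min and rested for 90 min in the home cage, and naïve mice stayed in the home cage. From each lysate, INPUT is RNA of all cell types and IP is RNA on HA-tagged ribosomes, which gives 4 libraries each of naïve INPUT, stress INPUT, naïve IP and stress IP. Mice of both sexes were used, and the labels give neither the sex behind a library nor which IP and INPUT share a mouse.

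GABA and glycine released at inhibitory synapses are not broken down in the cleft. They are carried back into neurons and astrocytes by sodium-coupled transporters of the Slc6 family, and in astrocytes GABA is then turned into succinate by GABA transaminase and succinic semialdehyde dehydrogenase while glycine is split by the mitochondrial glycine cleavage system. Slc6a11 encodes GAT-3, the GABA transporter typical of astrocytes, Slc6a13 encodes GAT-2, best known from meninges, liver and kidney, and Slc6a9 encodes GlyT1, the glial glycine transporter. Abat and Aldh5a1 encode the pair of GABA-degrading enzymes, Gldc the decarboxylase of the cleavage system, and Maob a monoamine oxidase of the outer mitochondrial membrane that also takes part in making GABA from putrescine.

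Promoters were compared because the members differed in how far they followed the astrocyte fraction: Slc6a11 and Gldc were the members most enriched in IP and Slc6a13 the least. The RefSeq table for GRCm38.p6 held 9 starts of 5 members and none for Abat or Maob. The 250 bases before the start are shown 5′ to 3′ for those 3 genes, at chr6:114130991-114131240 (plus strand) for Slc6a11, chr6:121300038-121300287 (plus strand) for the first start of Slc6a13 and chr19:30175442-30175691 (minus strand) for Gldc. Capitals mark the GC box GGGCGG on either strand.
Slc6a11: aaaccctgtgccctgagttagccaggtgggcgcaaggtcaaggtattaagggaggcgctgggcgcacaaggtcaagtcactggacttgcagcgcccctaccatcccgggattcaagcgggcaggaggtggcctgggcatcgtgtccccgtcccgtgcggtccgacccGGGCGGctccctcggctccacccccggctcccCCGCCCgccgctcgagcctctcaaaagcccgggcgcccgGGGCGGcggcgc
Slc6a13: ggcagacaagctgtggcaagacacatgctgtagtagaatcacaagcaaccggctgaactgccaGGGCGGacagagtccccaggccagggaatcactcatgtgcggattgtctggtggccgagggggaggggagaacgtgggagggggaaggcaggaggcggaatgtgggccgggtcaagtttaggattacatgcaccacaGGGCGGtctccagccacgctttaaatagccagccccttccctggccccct
Gldc: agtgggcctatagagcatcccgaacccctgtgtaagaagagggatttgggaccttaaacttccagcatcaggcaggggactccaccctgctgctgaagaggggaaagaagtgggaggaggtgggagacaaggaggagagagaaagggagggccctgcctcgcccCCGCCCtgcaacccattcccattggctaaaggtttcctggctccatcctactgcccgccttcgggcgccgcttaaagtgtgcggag
The Slc6a11 window was 71.2% G or C with 25 CpG, against 60.8% with 9 CpG for Slc6a13 and 59.6% with 8 CpG for Gldc. Over all 32851 promoters of the table the medians were 52.4% and 6 CpG. Slc6a11 held 3 GC boxes, 83, 51 and 12 bases before the start, Slc6a13 held 2, at 187 and 50 bases, and Gldc held 1, at 86 bases. A GC box was found in 32.7% of all promoters of this length, so a match does not set these genes apart. The other motifs searched on both strands were TTGGC (an NFI family site, in 41.5% of all promoters), ACAAT (core of SOX sites, 27.7%), TGACG (cAMP response element core, 17.8%) and the glucocorticoid receptor palindrome, GNACA and TGTNC 3 bases apart (0.387%). In the windows shown, TTGGC occurred once in Gldc and ACAAT once in Slc6a13, and none of the 9 member starts held the receptor palindrome. Starts 2 and 3 of Slc6a13 held no GC box, with 51.6% and 49.6% G or C and 6 and 2 CpG. TTGGC occurred once at start 2. The window shown for Slc6a13 ends at 121300287, past the gene start of 121300227 in GENCODE, and which start is used in cortex was not tested.

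Between 16392876 and 25814364 reads per library fell on genes, so that 3 reads, the least taken as a usable level, were at most 0.183 CPM. The HA pull-down followed the astrocyte labels: all 8 astrocyte markers were higher in naïve IP than in naïve INPUT, with sums of 81971 to 86701 CPM against 5158 to 5511 CPM, and all 6 neuron, 7 interneuron, 6 oligodendrocyte lineage, 5 microglia and 4 endothelial markers were lower. The mural cell markers went the other way as a sum, 134 to 155 CPM in naïve IP against 50.9 to 55.8 CPM in naïve INPUT, and 98.5 to 145 CPM in stress IP against 43.4 to 53.8 CPM in stress INPUT. Of the 3 mural markers tested, Pdgfrb was higher in IP and Rgs5 and Kcnj8 were lower, and the part of mural cells in the IP values was not tested. No tested gene of these lists was called for stress in either fraction (limma), where 0.44% of all genes were called in IP and 0.0442% in INPUT. In IP only 2 of the 4 endothelial and 2 of the 4 mural markers passed the filter for that comparison. CPM are shares of a library, and the median gene had a log2 ratio of IP over INPUT of −0.64 in naïve and −0.63 in stressed mice, and a median-ratio rescaling moves that median to 0.00 and −0.01. In bulk libraries of this kind, fewer cells of a type and less RNA per cell cannot be told apart.

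The IP libraries held much more of 6 of the 7 genes than INPUT did, in naïve and in stressed mice alike, and Slc6a13 was the exception. In naïve mice these 6 were higher at adjusted p of 8.4e-10 or less, and in stressed mice at 1.4e-07 or less (limma, Benjamini-Hochberg over all genes tested). The same call was made for 23.7% of 13339 genes in naïve mice and 23.6% of 13333 in stressed mice, while 64% and 62.5% were called lower. The IP and INPUT values of the 6 genes did not overlap in either condition, which was true of 83.7% and 81.4% of all genes in either direction. The median log2 ratio of the 7 members was 2.53 in naïve mice. Rescaling by the median ratio split the calls of all genes almost evenly, 41.9% higher and 42.3% lower in naïve mice, and the 6 genes remained higher under it.

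**Figure D1:**
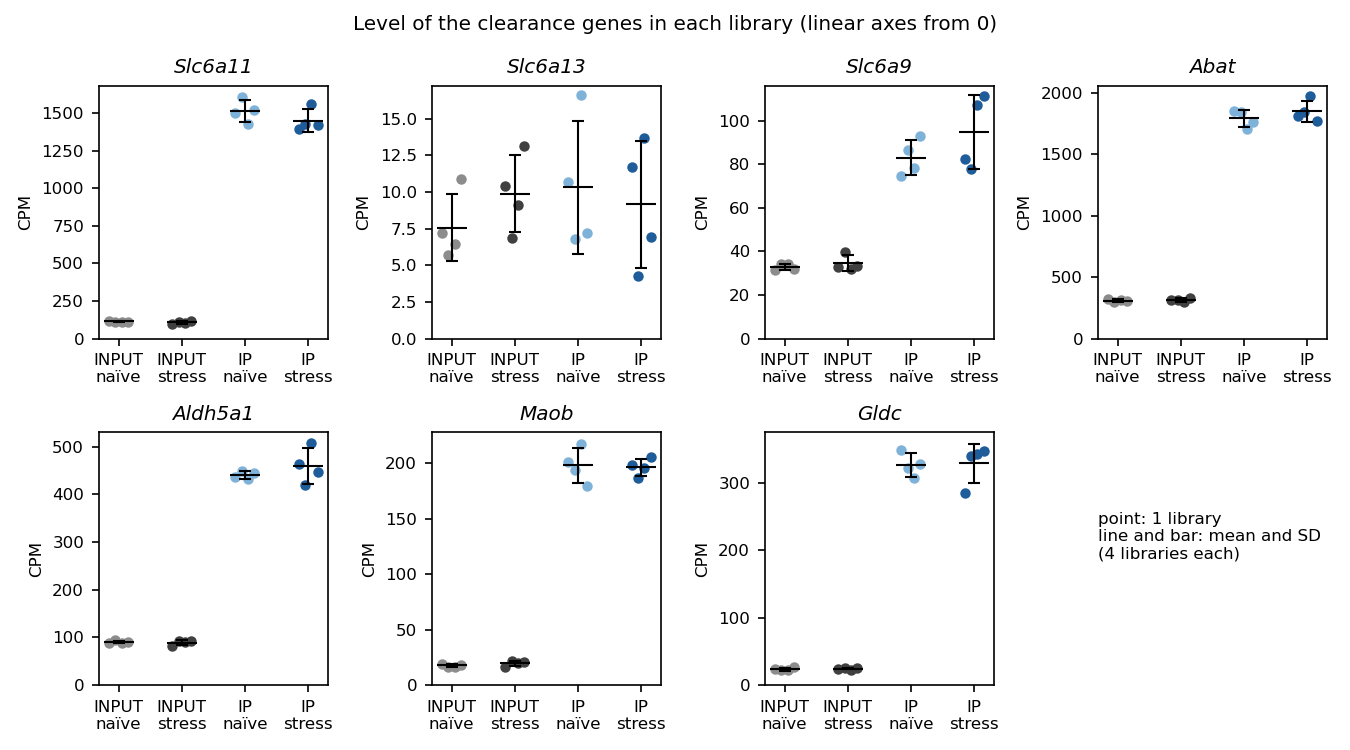
CPM of each member (linear axes from 0) in the 16 libraries, by fraction and condition. Points are libraries, and lines with bars are the mean and SD of 4 libraries. For 6 genes every IP point lies above every INPUT point, and for Slc6a13 the 4 groups overlap.

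Slc6a11, on chromosome 6 (GRCm38, 114131241 to 114249952, plus strand, 14 exon blocks of 5050 bp in all), was the member with the highest level per kilobase in IP. Naïve INPUT libraries held 117, 112, 112 and 113 CPM and stress INPUT libraries 95.5, 109, 106 and 118 CPM. Naïve IP libraries held 1503, 1605, 1428 and 1523 CPM and stress IP libraries 1395, 1425, 1561 and 1418 CPM. The fractions were far apart, and naïve and stress libraries overlapped within each. The mean rose from 114 ± 2.5 to 1515 ± 72.7 CPM (SD, n = 4) in naïve mice, 13.3-fold, with a log2 ratio of 3.73 (95% CI 3.63 to 3.84, limma adjusted p = 6.3e-15). In stressed mice the log2 ratio was 3.76 (CI 3.61 to 3.92). In naïve mice its ratio ranked 39 of the 13339 genes tested, from the largest.

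Slc6a9, on chromosome 4 (117834506 to 117875198, plus strand, 5141 bp of exon), the glycine transporter, was enriched less than Slc6a11. Naïve INPUT libraries held 31.3, 34.3, 34.0 and 32.0 CPM, and stress INPUT libraries 32.8, 39.9, 31.9 and 33.1 CPM. Naïve IP libraries held 74.6, 86.5, 78.1 and 92.7 CPM, and stress IP libraries 82.4, 77.9, 107 and 111 CPM. The fractions did not overlap, and the stress IP libraries fell into a lower and a higher pair. The log2 ratio was 1.33 in naïve mice (CI 1.17 to 1.49, limma adjusted p = 8.4e-10), a 2.51-fold difference, and 1.45 in stressed mice (CI 1.18 to 1.71). Exons of Slc6a9 overlap those of Ccdc24 on the other strand by 1429 bp, and 24.8% of its 69-base windows also lie in Ccdc24 or Gm17114. Ccdc24 itself stayed at or under 1.24 CPM in every library, and whether the counting used strand is not given in the sources used here.

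Slc6a13, the other GABA transporter on chromosome 6 (121300227 to 121337733, plus strand, 2904 bp of exon), behaved unlike the rest. Naïve INPUT libraries held 7.23, 5.71, 6.43 and 10.9 CPM, and stress INPUT libraries 10.4, 6.83, 9.13 and 13.1 CPM. Naïve IP libraries held 10.7, 6.81, 16.6 and 7.17 CPM, and stress IP libraries 11.7, 4.29, 13.6 and 6.91 CPM. All 4 groups overlapped, and the coefficient of variation within a group was 26.6% to 47.0%, while the largest of any other member was 18.0%. The lowest library still held 87 reads of this gene. The log2 ratio of IP over INPUT was 0.39 in naïve mice (CI −0.18 to 0.96, limma adjusted p = 0.17) and −0.21 in stressed mice (CI −0.90 to 0.48, limma adjusted p = 0.54). After median-ratio rescaling these became 1.02 (limma adjusted p = 0.0033) and 0.41 (limma adjusted p = 0.24), so the naïve call and the stressed sign depend on the scaling. The difference between the ratios of stressed and naïve mice was −0.60 (CI −1.57 to 0.37) and did not pass the test. Without naïve IP replicate 11 the naïve ratio was 0.13, and without stress IP replicate 5 the stressed ratio was 0.10.

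The genes whose pattern over the 16 libraries was most like that of Slc6a13 were Slc22a8, an organic anion transporter, Ptgds, prostaglandin D synthase, and Aldh1a2, a retinaldehyde dehydrogenase, all known from leptomeninges. Their root mean square difference from it, after each gene was centred on its mean log2 level, was 0.23, 0.26 and 0.27 over 13341 genes compared. Slc22a8 held 24.3 CPM in naïve IP replicate 11 and 6.71 CPM in stress IP replicate 5, which were its highest and lowest libraries and also those of Slc6a13. Because these genes were chosen for likeness over the same 16 libraries, extremes shared with Slc6a13 follow from the choice and are no separate support. Ptgds held 1355 CPM in that naïve library, with the other 15 libraries between 319 and 830 CPM. The 7 meningeal fibroblast markers Col1a1, Col1a2, Col3a1, Dcn, Lum, Slc47a1 and Igf2 summed to 91.8, 68.1, 142 and 69.1 CPM in naïve IP and to 96.5, 59.2, 86.9 and 72.9 CPM in stress IP. Their sum ranged from 69.4 to 101 CPM in naïve INPUT and from 82.7 to 119 CPM in stress INPUT, was highest and lowest in the same pair of libraries, and no marker of the list was at 0 in any library. In naïve IP against INPUT, 1 of the 7 markers was higher, 5 were lower and 1 was not called. The choroid plexus markers Ttr, Kl and Folr1 stood out in another library, naïve IP replicate 2, where they summed to 123 CPM, while naïve IP replicates 8, 11 and 13 held 4.12, 5.95 and 2.60 CPM. Their sum was 1.33 to 8.56 CPM in stress IP, 3.36 to 16.2 CPM in naïve INPUT and 3.08 to 4.88 CPM in stress INPUT. The part of meningeal or choroid plexus cells in the Slc6a13 values was not tested.

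**Figure D2:**
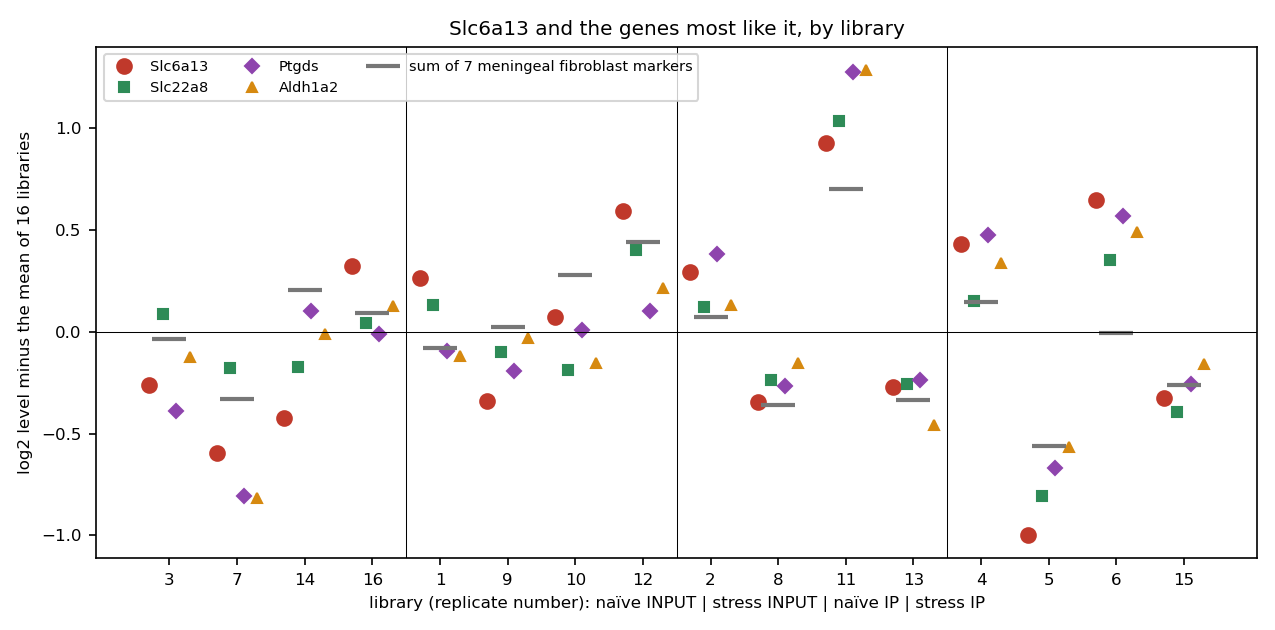
Log2 level of Slc6a13, of the 3 genes most like it and of the summed meningeal fibroblast markers, each minus its mean over the 16 libraries, by library. Vertical lines part the 4 groups. In IP all 5 series are highest in naïve replicate 11 and lowest in stress replicate 5. For the 3 genes this follows from their choice by likeness to Slc6a13 over these libraries.

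Abat, on chromosome 16 (8513429 to 8621568, plus strand, 7748 bp of exon), the GABA transaminase, was the member with the most reads. Naïve INPUT libraries held 321, 297, 311 and 308 CPM, and stress INPUT libraries 311, 310, 298 and 333 CPM. Naïve IP libraries held 1852, 1848, 1710 and 1764 CPM, and stress IP libraries 1813, 1848, 1972 and 1770 CPM. The lowest IP library held over 5 times the highest INPUT library. The log2 ratio was 2.53 in naïve mice (CI 2.43 to 2.64, limma adjusted p = 2.9e-14), a 5.79-fold difference, and 2.56 in stressed mice (CI 2.43 to 2.69).

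Aldh5a1, on chromosome 13 (24907579 to 24937661, minus strand, 5647 bp of exon), which oxidises the succinic semialdehyde made by Abat, went with it. Its INPUT libraries held 88.6, 94.7, 88.0 and 90.3 CPM in naïve and 81.6, 91.7, 90.6 and 91.4 CPM in stressed mice. Its IP libraries held 436, 450, 432 and 446 CPM in naïve and 465, 420, 509 and 447 CPM in stressed mice. The fractions were far apart, and the naïve IP libraries differed from each other by little, with a coefficient of variation of 1.87%. The log2 ratio was 2.29 (CI 2.18 to 2.39, limma adjusted p = 4.0e-14) in naïve and 2.37 (CI 2.22 to 2.52) in stressed mice. Of its 69-base windows, 12.2% are shared with a pair of noncoding genes on the other strand.

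Maob, on chromosome X (16709282 to 16817366, minus strand, 2789 bp of exon), was the member whose ratio was closest to that of the astrocyte marker Aldh1l1. Naïve INPUT libraries held 19.1, 16.5, 16.5 and 18.3 CPM, and stress INPUT libraries 16.6, 21.3, 19.5 and 20.4 CPM. Naïve IP libraries held 201, 194, 217 and 179 CPM, and stress IP libraries 198, 187, 195 and 205 CPM. The fractions did not overlap, and within each fraction naïve and stress libraries did. The log2 ratio was 3.48 in naïve mice (CI 3.32 to 3.64, limma adjusted p = 5.1e-14), an 11.2-fold difference, and 3.33 in stressed mice (CI 3.16 to 3.51). Aldh1l1 had 3.47 and 3.48.

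Gldc, on chromosome 19 (30098447 to 30175429, minus strand, 6091 bp of exon), had the largest ratio of the 7 in naïve mice, ranked 29 of the 13339 genes tested. Naïve INPUT libraries held 24.4, 21.6, 22.0 and 26.1 CPM, and stress INPUT libraries 24.0, 24.6, 22.8 and 25.1 CPM. Naïve IP libraries held 350, 322, 308 and 328 CPM, and stress IP libraries 286, 340, 343 and 347 CPM. The fractions did not overlap, and stress IP replicate 4 was the low one of its group. The log2 ratio was 3.79 in naïve mice (CI 3.64 to 3.94, limma adjusted p = 1.8e-14), a 13.9-fold difference, and 3.76 in stressed mice (CI 3.60 to 3.92).

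**Figure D3:**
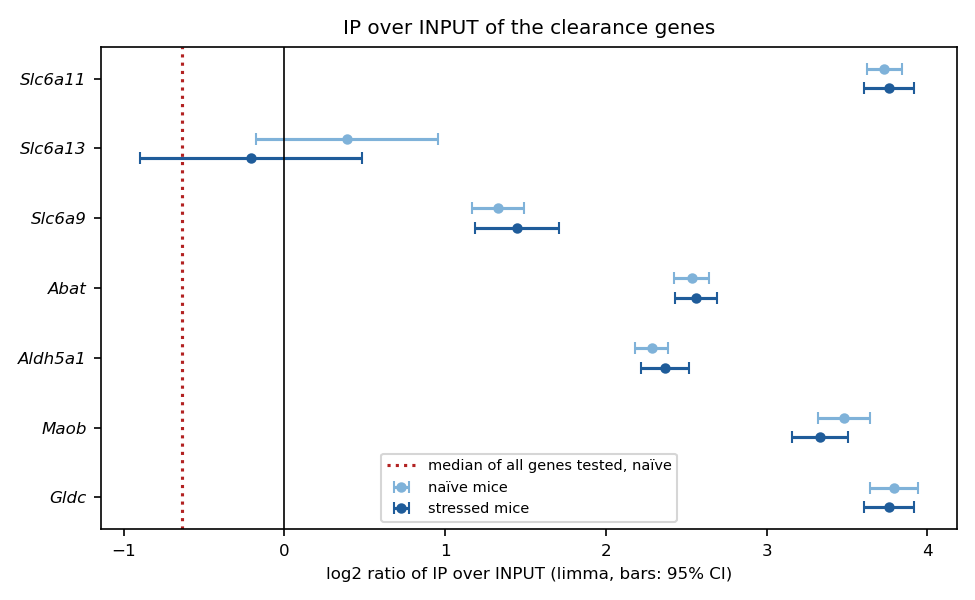
Log2 ratio of IP over INPUT for each member in naïve (light) and stressed (dark) mice, with 95% CI from limma. The dotted line is the median of all genes tested in naïve mice, −0.64. Slc6a11, Maob and Gldc lie above 3, Abat and Aldh5a1 between 2.29 and 2.56, Slc6a9 between 1.33 and 1.45, and both intervals of Slc6a13 include 0, although its naïve ratio passed the test and its stressed ratio changed sign after rescaling.

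Levels of different genes were compared as CPM per kilobase of exon. In naïve INPUT the order was Abat (39.9 ± 1.3 SD, n = 4), Slc6a11 (22.5 ± 0.50), Aldh5a1 (16.0 ± 0.54), Slc6a9 (6.40 ± 0.28), Maob (6.31 ± 0.46), Gldc (3.86 ± 0.34) and Slc6a13 (2.60 ± 0.79). Slc6a9 and Maob overlapped, as did Gldc and Slc6a13. In naïve IP Slc6a11 came first with 300.0 ± 14.4 CPM per kilobase, ahead of Abat (231 ± 8.9), Aldh5a1 (78.1 ± 1.5), Maob (70.9 ± 5.7), Gldc (53.6 ± 2.9), Slc6a9 (16.1 ± 1.6) and Slc6a13 (3.55 ± 1.6). Only Aldh5a1 and Maob overlapped as neighbours there, and the order was the same in stress IP with no overlap between neighbours. Slc6a11 and Abat thus changed places between the fractions on this measure, with no library of either breaking the order. In CPM Abat was above Slc6a11 in every library of both fractions, in naïve IP at 1710 to 1852 against 1428 to 1605. The change of places rests on an exon length merged over all transcripts, 7 for Abat and 2 for Slc6a11. In INPUT of stressed mice Maob stood ahead of Slc6a9, and these neighbours overlapped again.

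Ratios taken within a library do not depend on how libraries are scaled. They were set against Aldh1l1, a folate enzyme gene whose promoter drives the Cre, a reference chosen after the values were seen. In naïve mice Slc6a11 was 137 ± 9.9% of the Aldh1l1 CPM in INPUT and 165 ± 18.5% in IP, Maob was 21.3 ± 1.7% and 21.5 ± 0.14%, and Gldc was 28.4 ± 2.4% and 35.7 ± 3.9% (SD, n = 4). For these 3 genes the libraries of the fractions overlapped (exact permutation p = 0.057, 0.97 and 0.057, two-sided). Abat fell from 373 ± 19.2% to 196 ± 18.7% of Aldh1l1, Aldh5a1 from 109 ± 11.9% to 48.1 ± 4.5%, Slc6a9 from 39.8 ± 4.1% to 9.09 ± 1.5% and Slc6a13 from 9.08 ± 2.5% to 1.10 ± 0.40%. These 4 did not overlap, with an exact permutation p of 0.0286 each, the smallest that 4 against 4 libraries allow, before any adjustment for the 7 genes. In stressed mice the same 4 fell without overlap, and Gldc rose from 27.8 ± 0.66% to 33.9 ± 3.1% (exact permutation p = 0.0286). Aldh1l1 itself had a log2 ratio of IP over INPUT of 3.47 in naïve mice, just below Maob at 3.48. Of all genes tested there, 0.675% had a larger ratio than Maob. A fall against Aldh1l1 is thus the course of most genes and does not set these 4 apart. The share of all genes without overlap was not computed for this ratio.

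The pathway lists showed both directions, and each list includes members. Slc6a11, Slc6a13 and Slc6a9 are among the transporters, and Maob is in GABA synthesis. Abat and Aldh5a1 are in the GABA shunt, and Gldc is in glycine metabolism. The counts and medians of the lists are therefore not separate from the member results. Of 10 transporters of GABA, glycine and related substrates, 9 passed the filter, and in naïve mice 5 were higher in IP, 2 lower and 2 not called. Their median log2 ratio was 1.33, which is that of the member Slc6a9, against −0.64 for all genes. Slc7a10, the Asc-1 carrier of glycine and D-serine, had 3.46 (CI 3.31 to 3.61). Slc6a12, the betaine and GABA transporter BGT-1, had 1.35 (CI 0.53 to 2.18), from 0.69 CPM in INPUT to 1.78 CPM in IP. It passed the filter only through the IP libraries, where it is high, so its place among the 5 called higher is no support for the list, and in stressed mice it remained testable in only 5 of the 8 fits with a library left out. Slc6a6, the taurine transporter, had −1.39 (CI −1.58 to −1.21), and Slc32a1, which loads GABA and glycine into vesicles of inhibitory neurons, had −4.68 (CI −5.12 to −4.25). Slc6a20a, a proline carrier, was not called at 0.59 (CI −0.15 to 1.32), though it was called without naïve IP replicate 8 (0.81) and after median-ratio rescaling (1.22). Slc6a5, the neuronal glycine transporter GlyT2, had at most 3 reads in any library and was not tested.

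Among 12 genes of GABA synthesis from glutamate or putrescine, 11 were tested, and in naïve mice 6 were higher in IP and 3 lower. Maob was at the top of the list, and Gad1, the glutamate decarboxylase of inhibitory neurons, was at the bottom with a log2 ratio of −4.31 (CI −4.52 to −4.10). Of 11 genes of the GABA shunt and the reactions around it, 9 were higher and 2 lower, with a median of 1.29. Suclg2, a subunit of the GTP-forming succinate-CoA ligase, was highest at 3.15 (CI 2.96 to 3.34), and Akr1a1, an aldehyde reductase, lowest at −1.12 (CI −1.26 to −0.99). Of 12 genes of glycine metabolism 8 were tested, of which 7 were higher and 1 lower, with a median of 1.39. Gldc was highest, and Alas1, which uses glycine for haem, was lowest at −0.28 (CI −0.43 to −0.14), a sign that turned to 0.36 after median-ratio rescaling. In stressed mice the counts higher and lower were the same for transporters, shunt and glycine genes, and 7 and 3 for GABA synthesis.

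**Figure D4:**
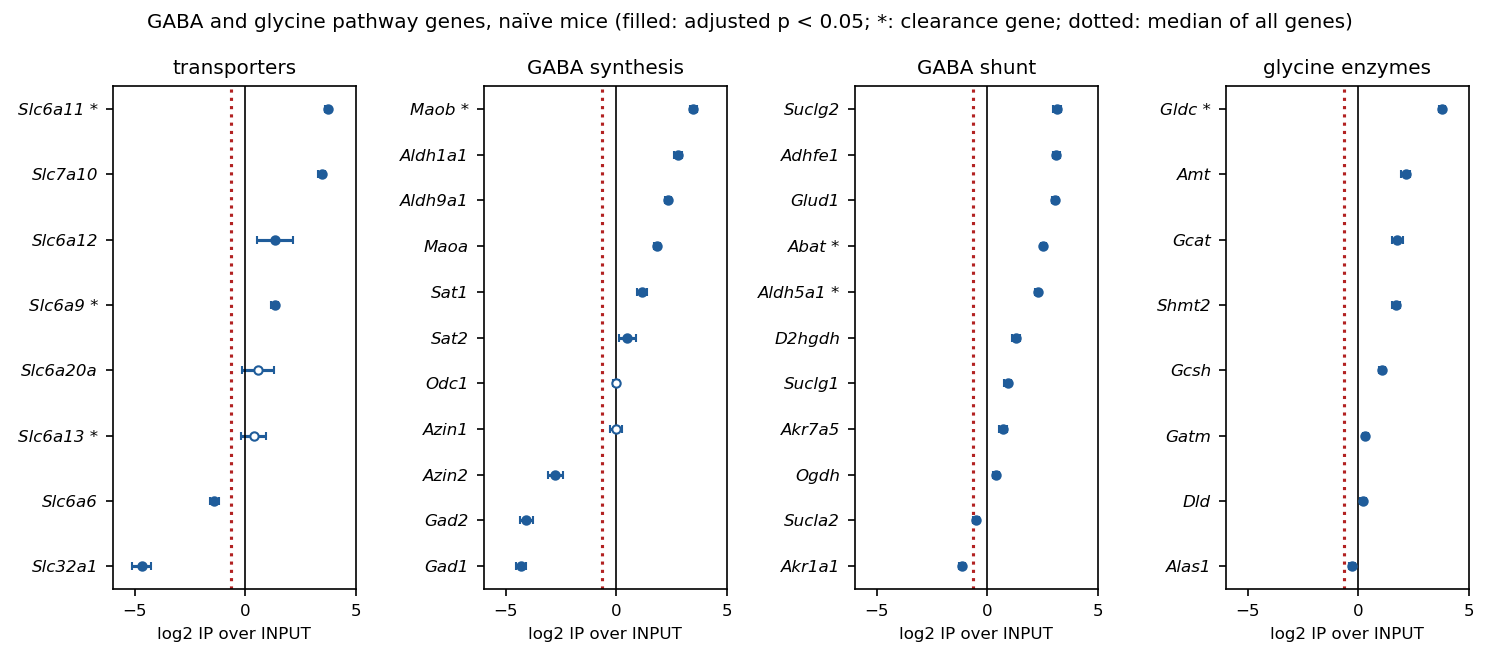
Log2 ratio of IP over INPUT in naïve mice, with 95% CI from limma, for genes of 4 lists, members marked by an asterisk. Filled points passed adjusted p under 0.05, and the dotted line is the median of all genes, −0.64. Slc6a11, Maob and Gldc are at the top of their lists, and Slc32a1 and Gad1 lie below −4. Under median-ratio rescaling Alas1 lies above 0.

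Partner genes within a step were not enriched equally. Per kilobase, Maob was 1.00 ± 0.039 of Maoa, its neighbour and paralogue, in naïve INPUT and 3.16 ± 0.21 in naïve IP (SD, n = 4). Gldc was 0.533 ± 0.056 of Amt, the aminomethyltransferase of the same cleavage system, in INPUT and 1.66 ± 0.094 in IP. Abat moved least against its partner, from 2.50 ± 0.16 of Aldh5a1 in INPUT to 2.96 ± 0.10 in IP. None of these 3 pairs overlapped between the fractions in naïve mice. Single genes did not overlap there in 83.7% of all cases, and the share of all gene pairs without overlap was not computed. The lack of overlap therefore does not set these pairs apart. Maoa and Amt were named after their values were seen.

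Each of the 6 enriched members had near matches among all genes, by the same measure as for Slc6a13. For Slc6a11 these included AI464131 and Slc1a3, the glutamate transporter GLAST, at 0.085 and 0.10. For Gldc they included Pla2g7 at 0.101 and Acsbg1 at 0.104. For Maob they included Pbxip1 at 0.094 and Ndrg2 at 0.11. Abat was nearest to Lap3, Aldh2 and Tnfrsf19 at 0.071 to 0.078, and Aldh5a1 to Lsamp, Dhrs3 and Fam213a at 0.074 to 0.080. Slc6a9 was nearest to Clic4, Ctsz and Fhl1 at 0.11 to 0.14. The nearest gene to Slc6a13, at 0.23, was thus farther away than any match named here of the other 6. This distance grows with a gene's own spread between libraries, which was largest for Slc6a13. The larger value therefore does not show that Slc6a13 lacks matching genes.

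The study, whose other experiments were on astrocyte structure, coupling and synaptic plasticity, first compared astrocyte ribosome-bound RNA of naïve and swum mice. In these libraries no member passed the test for stress in IP. In IP, 0 of 7 members were called with limma, 0 had p under 0.05 before adjustment, and their adjusted p ranged from 0.75 to 0.99. Of all 12501 genes tested, 0.44% were called and 8.27% had p under 0.05. In no member were the stress and naïve libraries apart, against 5% of all genes. The log2 differences of stress over naïve were −0.06 for Slc6a11 (CI −0.19 to 0.07), 0.18 for Slc6a9 (CI −0.08 to 0.43) and −0.21 for Slc6a13 (CI −0.99 to 0.56). They were 0.05 for Abat (CI −0.08 to 0.17), 0.06 for Aldh5a1 (CI −0.08 to 0.19), −0.01 for Maob (CI −0.15 to 0.13) and 0.01 for Gldc (CI −0.15 to 0.16). The signs of Slc6a13, Abat, Maob and Gldc changed under another scaling, library weights or with a library left out.

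As percentages, the intervals in IP ran from a decrease of 12.5% to an increase of 4.68% for Slc6a11, and from −5.39% to 12.5% for Abat. Those for Aldh5a1, Maob and Gldc lay between −9.84% and 14.2%. For Slc6a9 the interval was −5.25% to 35.1%, and for Slc6a13 it was −49.6% to 47.6%, so changes of those sizes in these genes could not be told from none. The smallest exact permutation p among the 7 was 0.29 (two-sided, 70 labelings, lowest possible 0.0286). On simulated IP reads the limma test recovered 88% of genes changed by 0.7 on the log2 scale and 99.0% of those changed by 1. The simulation gave every gene the same spread above counting noise, the median of naïve IP. It changed 100 and 99 genes by these amounts, where 55 genes were called in the data. These rates are therefore not those of a single member, least of all of Slc6a13, with a coefficient of variation of 44.1% and 47.0% in naïve and stress IP.

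In INPUT, too, 0 of 7 members were called and 0 had p under 0.05, with adjusted p of 0.994 to 0.995 (limma), against 0.0442% called and 5.03% under 0.05 of 13577 genes. None was free of overlap between stress and naïve libraries, against 2.87% of all genes. Slc6a13 had the largest difference at 0.39 (CI −0.07 to 0.84), followed by Maob at 0.14 (CI −0.07 to 0.35) and Slc6a11 at −0.09 (CI −0.23 to 0.04). The other 4 lay between −0.03 and 0.06, with intervals from −0.15 to 0.23, and the sign of each of these changed with a library left out. The smallest exact permutation p was 0.14, for Maob. With the Xist level as a stand-in for sex, the differences of X-linked Maob were −0.01 in IP and 0.14 in INPUT.

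**Figure D5:**
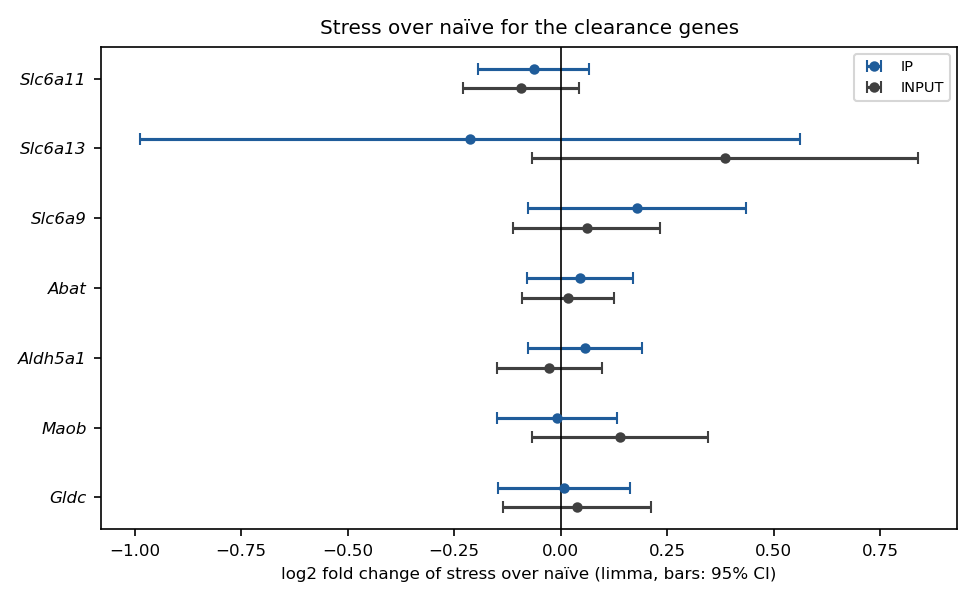
Log2 fold change of stress over naïve for each member in IP (blue) and INPUT (black), with 95% CI from limma. Every interval includes 0, and those of Slc6a13, −0.99 to 0.56 in IP and −0.07 to 0.84 in INPUT, are the widest.

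The stress effect was also compared between the fractions with an interaction term over all 16 libraries. It was called for 0 of 7 members, each with an adjusted p of 1.00 (limma) and none with p under 0.05, against 0.0225% called and 4.71% under 0.05 of 13341 genes. The largest differences were −0.60 for Slc6a13 and −0.15 for Maob (CI −0.38 to 0.09). None of the genes tested in the 4 pathway lists was called for stress in either fraction or for the difference between them (limma, Benjamini-Hochberg). Listed genes under the filter on low values were not tested. Of all genes tested, 0.44% were called in IP, 0.0442% in INPUT and 0.0225% for the difference, so the absence of calls does not set the lists apart. Without naïve IP replicate 11, 1 gene of the GABA synthesis list was called in IP, which was no member. In IP the smallest adjusted p of the lists were 0.75 for transporters, 0.58 for GABA synthesis, 0.69 for the GABA shunt and 0.69 for glycine enzymes, with list medians between −0.06 and 0.07 against 0.00 for all genes. Gad1 in INPUT was the 1 gene named from these lists whose stress and naïve libraries did not overlap, at 335 ± 5.6 against 308 ± 10.3 CPM (SD, n = 4, log2 difference 0.12, limma adjusted p = 0.87). The same was true of 2.87% of 13577 genes in INPUT and 5% of 12501 genes in IP, so it does not set Gad1 apart.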

How the data were processed

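RNA sequencing gave 16 libraries, 4 per group, one per lysate or pull-down. For each of these the authors deposited a table of log2 CPM, scaled to each library's own total with a small constant added (about 0.25 reads) and no gene length. Alignment was to mm10 by STAR and counting by HTSeq, per the labels and methods. Without the constant, 100% of values were whole reads (tolerance 0.05 reads), and no libraries were identical.

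Tests used limma (version 3.58.1, R 4.3.3) on log2(CPM + 0.1), with a variance trend, over genes with a mean above 1 CPM, at Benjamini-Hochberg adjusted p under 0.05. IP and INPUT were treated as independent, and p-values measure the spread between libraries only. Single genes had two-sided exact permutation tests. Counting error only is covered by the limit of 3 reads. Coordinates and exon lengths came from GENCODE M21 (GRCm38), promoters from RefSeq. Likeness was the root mean square difference of centred log2 levels, the 3 nearest genes being named. All members and transporters were named, and of other lists the genes of highest and lowest ratio, except 3 genes that are not reported here. Members and lists were chosen with earlier results of these data known. Pseudocount, filter, scaling, model and left-out libraries were varied. The limma fit was tested on simulated data. Tables and plots used Python 3.11.15, pandas 2.3.3 and matplotlib 3.10.9.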

Additional observations from a re-analysis of the deposited data

Results flagged for a closer look

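In 4 of 28 groups of 4 libraries, the most distant library of a member lay farther from the others than Dixon's 95% limit allows, where chance gives 1.4. Slc6a11 was at 117.5 CPM in naïve INPUT replicate 3, with the others at 112.2 to 112.8 CPM. Slc6a9 was at 39.89 CPM in stress INPUT replicate 9, with the others at 31.9 to 33.1 CPM. Aldh5a1 was at 81.62 CPM in stress INPUT replicate 1, with the others at 90.6 to 91.7 CPM. Gldc was at 285.7 CPM in stress IP replicate 4, with the others at 340 to 347 CPM. The deviation of Slc6a11 was small in size, since the gap amounts to a few CPM. No library carried more than 1 of these values, and no stress or fraction call of a member rested on them.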

How the results depend on the processing

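With 4 libraries per group, the number of members called was 6 in each comparison of IP with INPUT and 0 in each stress comparison under every alternative run, except that Slc6a13 made it 7 in naïve mice after median-ratio rescaling and quantile normalization. The number of all genes called for stress moved more. In IP it was 55, with 19 without a variance trend, 143 with array weights, 124 in 1 model of all libraries and 17 to 122 with a library left out, the 122 without naïve IP replicate 11. In INPUT it was 6, with 0 (727 genes at p under 0.05), 50 and 2 under the same 3 limma settings and 1 to 32 with a library left out. For the difference between fractions it was 3, with 19 under array weights and 2 to 28 with a library left out. Run on the recovered reads, limma-voom called 49, 5 and 3 genes for these comparisons. Signs turned for these log2 values, and the cause was not tested. Under median-ratio rescaling and quantile normalization, IP over INPUT in stressed mice became 0.41 and 0.53 for Slc6a13, 0.55 and 0.64 for Slc6a20a (0.0638 with array weights) and 0.33 and 0.23 for Alas1, and in naïve mice 0.36 and 0.24 for Alas1. Array weights gave 0.10 for Slc6a13 and 0.0095 for Maob for stress in IP, −0.0052 for Gldc in INPUT, and −0.0038 for Slc6a11 and 0.0036 for Gldc for the difference. Quantile normalization gave −0.0299 for Abat and −0.01 for Gldc for stress in IP, and −0.0439 for Abat for the difference. With a library left out, IP over INPUT in stressed mice ran from −0.44 to 0.10 for Slc6a13 and −0.31 to 0.14 for Slc6a20a. Stress in IP ran from −0.45 to 0.10 for Slc6a13, −0.0556 to 0.0383 for Maob and −0.021 to 0.074 for Gldc. Stress in INPUT ran from −0.0119 to 0.0951 for Slc6a9, −0.0138 to 0.0404 for Abat, −0.0425 to 0.0137 for Aldh5a1 and −0.0011 to 0.0892 for Gldc, and the difference from −0.0242 to 0.0781 for Slc6a11, −0.0023 to 0.0591 for Abat and −0.0817 to 0.0356 for Gldc. Depth limits Slc6a12 and Slc6a5, and the spread between libraries limits Slc6a13. No paired analysis was possible because the groups share no replicate numbers.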

Other observations

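Slc6a11 and Slc6a13 lie on the same chromosome and encode GABA transporters of one family, yet per kilobase Slc6a11 was 9.16 ± 2.3 times Slc6a13 in naïve INPUT and 97.1 ± 39.3 times in naïve IP (SD, n = 4). In stressed mice the ratios were 6.56 ± 1.9 and 111 ± 58.6. The lowest ratio in IP, 49.5 in a naïve library, was above the highest in INPUT, 11.3. This restates the log2 ratios of IP over INPUT given above, 3.73 for Slc6a11 and 0.39 for Slc6a13 in naïve mice, and is no separate result.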
